A study of Homo sapiens with 9 samples.

Results

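The chromatin contacts of the KRT19 promoter were described across the type I keratin cluster of chromosome 17 in HCT-116 cells, a human colon cancer line. Contacts were chosen by distance: all 2714 listed DpnII fragments within 500 kb of the KRT19 start (chr17:41528308, hg38, minus strand), out of 47189 such fragments around the 20 promoters of the series. The cells carry the genotype MED14-dTAG, in which the Mediator subunit MED14 is fused to a tag that lets a small ligand (dTAG) trigger its degradation. The 9 libraries fell into 3 groups of 3: dTAG for 2 h (called dTAG), dTAG for 2 h with the BET inhibitor iBet for 90 min (called dTAG+I-BET), and DMSO. All 3 groups share the MED14-dTAG genotype, so that DMSO is the control within the tagged line, and no untagged cells were analysed here. How far MED14 was depleted is not visible in contact data.

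KRT19 encodes a type I (acidic) keratin of simple epithelia. Type I keratins pair with type II keratins to form the intermediate filaments of epithelial cells, and nearly all their genes lie side by side in one cluster, with the epithelial keratins around KRT19, the hair keratins next to them, and the keratin-associated protein (KRTAP) genes, whose products cross-link hair keratin filaments, further away. Mediator is the large complex that links enhancer-bound factors to RNA polymerase II. In Capture-C, chromatin is cut with DpnII (which cuts at GATC), religated, and ligation products of a chosen promoter are enriched with oligonucleotides, so that the count at each fragment reports how often it was joined to that promoter. KRT19 lies on the minus strand, so "upstream" below means higher coordinates (towards KRT14, KRT17 and EIF1) and "downstream" lower coordinates (towards KRT13, the hair keratins and the KRTAP array).

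The sequences below show the places that the description of the profile names. In the stretch from 120 to 200 kb upstream, where the profile has its highest distant bin and then drops, 6 sites matched a core of the motif of the insulator protein CTCF, searched on both strands in a form that leaves some of its positions free. They are printed in hg38 on the strand of the match, with the matching bases in capitals. They were chosen after the profile was seen. The match at 137.8 kb lies inside the highest distant bin, those at 128.5 and 167.8 kb lie on either side of it, and the other 3 lie where the signal was already low.
128.5 kb upstream, chr17:41656763-41656814, plus strand: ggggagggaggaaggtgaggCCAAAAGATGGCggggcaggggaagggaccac
137.8 kb upstream, chr17:41666048-41666099, minus strand: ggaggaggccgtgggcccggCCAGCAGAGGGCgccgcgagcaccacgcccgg
167.8 kb upstream, chr17:41696129-41696180, minus strand: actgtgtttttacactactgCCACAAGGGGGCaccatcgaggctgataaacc
188.7 kb upstream, chr17:41716939-41716990, plus strand: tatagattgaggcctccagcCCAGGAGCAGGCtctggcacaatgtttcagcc
190.2 kb upstream, chr17:41718499-41718550, plus strand: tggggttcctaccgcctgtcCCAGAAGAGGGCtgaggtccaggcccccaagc
196.5 kb upstream, chr17:41724802-41724853, minus strand: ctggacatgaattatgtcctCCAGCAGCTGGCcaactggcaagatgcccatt

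The core motif occurred in 31 of the 98 10-kb bins around KRT19 (31.6%) and in 21.7% of the 1960 bins around all 20 promoters. A match is a description and does not show that CTCF binds there. The unit of measurement is the DpnII fragment. The fragment of at most 300 bases with the most interactions in the highest distant bin is printed with its flanking GATC sites in capitals; its 184 bases between the sites held 58 interactions over the 9 libraries. Its counts were 10, 5 and 2 in dTAG, 6, 7 and 7 in dTAG+I-BET, and 8, 6 and 7 in DMSO, so single fragments carried too few interactions for a comparison and were summed into bins, windows and sections.
Fragment 130.3 kb upstream, chr17:41658540-41658731, plus strand: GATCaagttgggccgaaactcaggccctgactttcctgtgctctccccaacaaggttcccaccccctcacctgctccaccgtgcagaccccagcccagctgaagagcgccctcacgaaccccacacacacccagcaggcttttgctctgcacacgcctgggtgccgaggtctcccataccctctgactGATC

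Of the 60 protein-coding gene starts within 500 kb, 50 matched an entry of the RefSeq promoter table (GRCh38.p14, 250 bases before to 50 after the start). The promoters of EIF1 and GAST are shown because the signal fell away between them, and that of KRT36 because it had the highest signal among hair keratin starts; GATC is in capitals, and 41.7% of all 35116 promoters in the table hold it. EIF1 encodes a translation initiation factor that helps select the start codon, GAST the stomach hormone gastrin, and KRT36 a hair keratin. Of these only the EIF1 promoter holds a DpnII site, so the GAST and KRT36 promoters were measured as parts of longer fragments.
EIF1 promoter, chr17:41688635-41688934, plus strand: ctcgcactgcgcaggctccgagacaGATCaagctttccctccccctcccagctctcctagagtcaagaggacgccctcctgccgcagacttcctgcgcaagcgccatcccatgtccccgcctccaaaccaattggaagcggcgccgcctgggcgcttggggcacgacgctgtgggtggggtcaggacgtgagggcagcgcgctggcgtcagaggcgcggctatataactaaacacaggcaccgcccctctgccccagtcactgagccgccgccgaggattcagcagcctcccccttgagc
GAST promoter, chr17:41712081-41712380, plus strand: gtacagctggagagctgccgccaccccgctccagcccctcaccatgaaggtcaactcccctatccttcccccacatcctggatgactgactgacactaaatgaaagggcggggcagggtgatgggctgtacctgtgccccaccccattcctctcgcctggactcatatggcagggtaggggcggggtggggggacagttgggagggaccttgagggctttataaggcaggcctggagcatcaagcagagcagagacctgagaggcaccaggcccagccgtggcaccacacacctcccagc
KRT36 promoter, chr17:41489861-41490160, minus strand: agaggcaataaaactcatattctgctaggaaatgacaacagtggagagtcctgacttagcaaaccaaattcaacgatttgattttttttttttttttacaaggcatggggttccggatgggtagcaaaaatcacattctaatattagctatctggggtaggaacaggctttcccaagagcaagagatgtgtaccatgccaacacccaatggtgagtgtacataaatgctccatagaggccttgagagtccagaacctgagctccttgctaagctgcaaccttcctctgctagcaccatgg

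The KRTAP genes arose by repeated duplication, which limits how surely a read can be placed. Among the 29 KRTAP promoters of the window in the RefSeq table, the pair with the most equal bases at the same position was KRTAP9-6 and KRTAP9-7. With no gaps allowed, 217 of their 300 positions were equal (72.3%). Only their last 170 bases, up to 50 bases after the start, are printed, with unequal bases in capitals, because the likeness is concentrated there (160 of 170 equal, 94.1%). How reads in such copies were handled is not given in the sources used here, so counts at duplicated KRTAP genes are uncertain.
KRTAP9-6 promoter, chr17:41265258-41265427, plus strand: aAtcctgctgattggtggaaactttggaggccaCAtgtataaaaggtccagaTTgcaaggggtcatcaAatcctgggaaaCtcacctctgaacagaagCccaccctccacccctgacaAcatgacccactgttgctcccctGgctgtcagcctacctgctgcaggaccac
KRTAP9-7 promoter, chr17:41275578-41275747, plus strand: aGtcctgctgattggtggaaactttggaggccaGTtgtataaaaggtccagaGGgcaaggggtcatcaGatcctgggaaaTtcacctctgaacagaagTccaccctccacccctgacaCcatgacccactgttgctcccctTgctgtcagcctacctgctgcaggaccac

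The KRT19 viewpoint held 10698 to 18133 interactions on chromosome 17 per library, and 38.4% to 47.5% of all its interactions were with other chromosomes. Between 36.3% and 46.9% of the interactions on chromosome 17 lay 10 to 500 kb from the start. The lowest of these shares, 36.3%, belonged to dTAG replicate 3, while the other 2 dTAG libraries had 44.6% and 45.3%. In the band from 10 to 50 kb this library lay 0.42 (log2) below the mean of the 9 libraries at KRT19 and 0.52 below it at the other 19 promoters, so it stood apart over the viewpoints as a whole, and values without it are given where they change a call or differ clearly. DMSO replicate 3 lay 0.19 below at KRT19 and 0.14 below at the others. Leaving out dTAG replicate 3 does not change a limma ratio of dTAG+I-BET against DMSO, since it belongs to neither group. It changes only the spread, which limma estimated from all libraries together. A pass of that comparison without it therefore reflects a smaller SE and not a larger difference. All values below are the deposited signal, that is interactions scaled per viewpoint and library, summed over a region and divided by its length in kb. At KRT19 the scaled sum on chromosome 17 was near equal between libraries (926715 to 938968), so values in different parts of the chromosome are not independent. A 10-kb bin held 2 to 647 interactions in a library, which limits the precision far from the promoter.

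The contact profile was lopsided at long range, with 1 distant high point upstream and a raised stretch downstream. Upstream, the signal declined through the KRT9 to KRT17 block and climbed again to a maximum in the bin 130 to 140 kb from the start (chr17:41658308-41668307). That bin contains no start of a gene with a symbol, and genes known only by an identifier were left out of this lookup. Beyond EIF1 the signal dropped to low levels that lasted to 500 kb. Downstream, the signal declined through KRT13 and the hair keratins and then ran flat or rose again inside the KRTAP array. The same shape was seen in all 3 groups, as the plot of signal by distance shows.

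**Figure D1:**
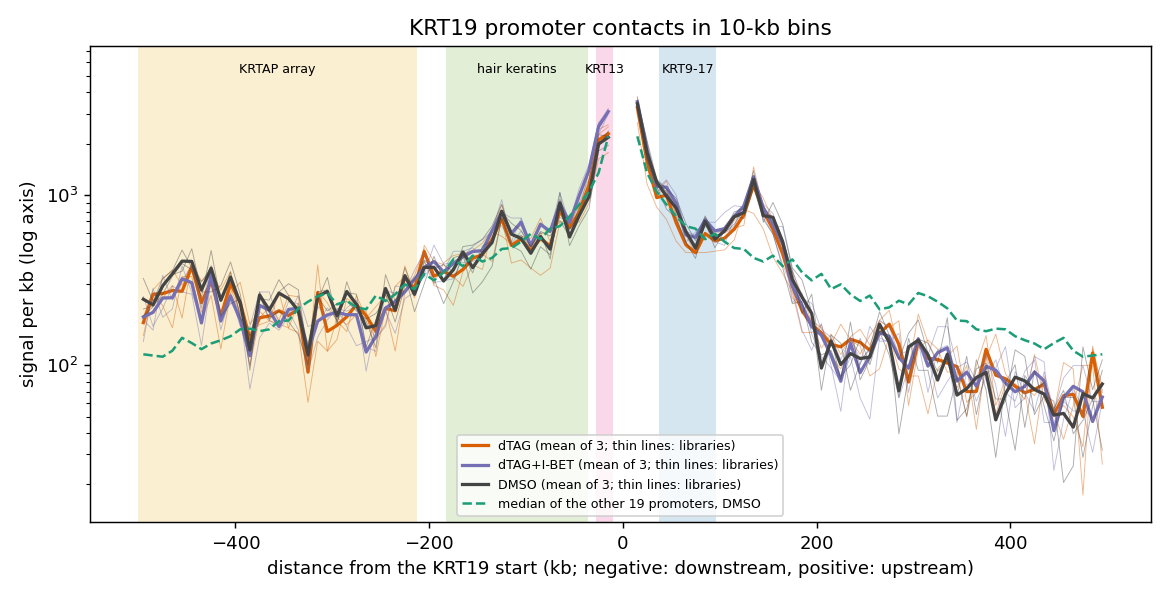
Signal of the KRT19 promoter per kb (log axis) in 98 10-kb bins by distance from the KRT19 start in kb, with upstream to the right. Thick lines are means of 3 libraries of dTAG, dTAG+I-BET and DMSO, thin lines are single libraries, the dashed line is the median of the other 19 promoters in DMSO, and shaded bands mark the sections of the cluster. All 3 groups peak 130 to 140 kb upstream, where DMSO averaged 1235 per kb against a median of 428 per kb at the other promoters.

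The bin 130 to 140 kb upstream measured 1462, 1194 and 780 per kb in dTAG, 1295, 1310 and 1232 per kb in dTAG+I-BET, and 1389, 1207 and 1108 per kb in DMSO. dTAG replicate 3 was the lowest of the 9 libraries there, and the groups overlapped. In DMSO this bin was 2.89 times the median of the other 19 promoters at the same distance, as a description of 1 locus against 19. The 3 bins beyond EIF1, from 170 to 200 kb, averaged 319, 252 and 202 per kb in DMSO, or 0.763, 0.716 and 0.639 times the other promoters. From 200 to 210 kb, where HAP1 (a partner protein of huntingtin) starts, the mean was 96.4 per kb, or 0.280 times.

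The other bins in which DMSO exceeded the other promoters most lay 420 to 470 kb downstream, inside the KRTAP array. The bin at 440 to 450 kb (chr17:41078308-41088307, with the KRTAP4-7 start) was 3.02 times the median of the other 19 promoters, and those at 460 to 470, 450 to 460 and 420 to 430 kb were 2.83, 2.82 and 2.77 times. Over the 10 bins from 400 to 500 kb the median of this ratio was 2.42 downstream and 0.554 upstream. The bin at 440 to 450 kb measured 332, 405 and 399 per kb in dTAG, 268, 262 and 386 per kb in dTAG+I-BET, and 484, 365 and 374 per kb in DMSO.

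Within 10 kb of the start, where self-ligation and undigested chromatin add to the signal, no test was made. The 5-kb window at the start of KRT15, a keratin of basal cells of stratified epithelia and the direct downstream neighbour of KRT19, measured 5549, 5281 and 5821 per kb in dTAG, 5365, 5963 and 5475 per kb in dTAG+I-BET, and 4698, 4519 and 4663 per kb in DMSO. Every library of both treated groups was above every DMSO library. This window (chr17:41520029-41525028) overlaps the KRT19 gene (chr17:41523617-41528308). The first 5 kb downstream, which it also overlaps, showed the same separation. Its signal was 6796 ± 1203 per kb in dTAG, 6263 ± 201 per kb in dTAG+I-BET and 5520 ± 326 per kb in DMSO. From 5 to 10 kb downstream dTAG overlapped DMSO, at 3456, 3293 and 2755 per kb against 2825, 3019 and 2936 per kb. Over the KRT19 gene it did so too, at 5612, 5841 and 7551 per kb against 5396, 4870 and 5660 per kb. In both places the dTAG+I-BET libraries lay above all DMSO libraries. Within 10 kb no share over the other promoters was taken for such separations. The first 5 kb upstream gave 5611 ± 798 per kb in dTAG, 5965 ± 421 per kb in dTAG+I-BET and 5877 ± 592 per kb in DMSO (SD, n = 3 each), so the groups overlapped on that side.

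Which parts of the cluster changed their contact with the KRT19 promoter was asked for bands of distance and for sections set by gene content. The 3 comparisons were dTAG with DMSO, dTAG+I-BET with DMSO and dTAG+I-BET with dTAG, and counts for all 3 are given in that order. With dTAG alone none of the 14 regions was called (2 at an unadjusted p under 0.05), with adjusted p under 0.05 in limma as the rule, where 6.63% of 166 such regions at all 20 promoters were called. With dTAG+I-BET 2 overlapping regions fell, where 3.01% of the 166 were called lower and 10.8% in either direction: the band from 250 to 500 kb downstream and the KRTAP array that fills it. Regions near the promoter on the same side, holding KRT13 and the hair keratins, were higher in dTAG+I-BET than in DMSO in every library without passing the test. Nothing was called between dTAG+I-BET and dTAG (3 at an unadjusted p under 0.05), where the background was 0%, and edgeR called 0, 2 and 0 of the 14. These 2 were not the ones limma called but the higher regions nearest to the promoter, 10 to 50 kb downstream and KRT13 to KRT15. All shares of called regions over the 20 promoters are for limma with all 9 libraries. None is given for edgeR or for other settings, so calls made there cannot be set against a background.

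In the band from 250 to 500 kb downstream (chr17:41028308-41278307) the signal was 212, 225 and 226 per kb in dTAG, 203, 204 and 214 per kb in dTAG+I-BET, and 261, 257 and 246 per kb in DMSO. All treated libraries lay below all DMSO libraries. The log2 ratio was -0.30 (SE 0.07, limma adjusted p = 0.0172) for dTAG+I-BET against DMSO and -0.21 (SE 0.07, limma adjusted p = 0.0961) for dTAG against DMSO. The exact permutation p was 0.1 for each, the smallest that 3 against 3 allows.

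The KRTAP array itself (chr17:41028308-41315710) measured 218, 233 and 224 per kb in dTAG, 213, 206 and 223 per kb in dTAG+I-BET, and 265, 257 and 250 per kb in DMSO. It overlaps the band above and is not a separate result. The log2 ratio was -0.27 (SE 0.07, limma adjusted p = 0.0332) for dTAG+I-BET and -0.19 (SE 0.07, limma adjusted p = 0.113) for dTAG, both against DMSO. Each call rested on most libraries of the contrast: without 1 of DMSO replicates 1 and 2 or of the 3 dTAG+I-BET replicates, the limma adjusted p was 0.0576 to 0.117 for the band and 0.0734 to 0.186 for the array, at log2 ratios of -0.32 to -0.28 and -0.30 to -0.24. With edgeR on recovered interactions the adjusted p was 0.0938 and 0.107. Without dTAG replicate 3 the dTAG ratios passed too, at -0.22 (limma adjusted p = 0.0195) for the band and -0.19 (limma adjusted p = 0.0408) for the array.

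At KRT19 the groups did not overlap in 3, 7 and 4 of the 14 regions, against 17.5%, 47% and 25.9% of all 166. The 7 regions of dTAG+I-BET against DMSO therefore made up a share close to that over all promoters.

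The part of the cluster beyond 500 kb downstream (chr17:40697991-40987135), which holds KRT10, KRT12, KRT20 and the keratins of the inner root sheath, measured 407, 418 and 391 per kb in dTAG, 394, 373 and 369 per kb in dTAG+I-BET, and 447, 441 and 458 per kb in DMSO. All treated libraries were again below DMSO. The log2 ratio was -0.15 (SE 0.08, limma adjusted p = 0.446) for dTAG and -0.24 (SE 0.08, limma adjusted p = 0.0902) for dTAG+I-BET, so neither was called. Without dTAG replicate 3 the dTAG+I-BET ratio passed (limma adjusted p = 0.00292).

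The section from KRT13 to 10 kb short of KRT19 (chr17:41500981-41518307) measured 2594, 2520 and 1775 per kb in dTAG, 2751, 2979 and 3155 per kb in dTAG+I-BET, and 2240, 2258 and 1973 per kb in DMSO. dTAG+I-BET lay above DMSO without overlap, and 2 dTAG libraries lay above the DMSO range and replicate 3 below it. The log2 ratio of dTAG+I-BET was 0.46 (SE 0.16, limma adjusted p = 0.0902) against DMSO and 0.39 (SE 0.16, limma adjusted p = 0.521) against dTAG, where it was 0.21 without dTAG replicate 3. edgeR called it for dTAG+I-BET against DMSO, at 0.44 (adjusted p = 0.00623). Without dTAG replicate 3 limma called it too, at 0.46 (limma adjusted p = 0.000467) for dTAG+I-BET and 0.25 (limma adjusted p = 0.0376) for dTAG, both against DMSO. For dTAG+I-BET the ratio was the same as with all 9 libraries, and only its SE fell, from 0.16 to 0.07. Each library's decay with distance was also corrected for, by the other 19 promoters. With all 9 libraries the ratios of dTAG+I-BET and dTAG against DMSO were then 0.28 (limma adjusted p = 0.00216) and 0.16 (limma adjusted p = 0.0498).

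The whole band from 10 to 50 kb downstream showed the same order, with 1803, 1700 and 1247 per kb in dTAG, 1851, 2036 and 2113 per kb in dTAG+I-BET, and 1571, 1546 and 1315 per kb in DMSO. Its log2 ratio for dTAG+I-BET against DMSO was 0.44 (SE 0.16, limma adjusted p = 0.0969). It passed without dTAG replicate 3 (limma adjusted p = 0.00139) and with edgeR, at 0.42 (adjusted p = 0.0108). After correction for decay it was 0.26 (limma adjusted p = 0.00563). At the other 19 promoters, both sides together, the dTAG+I-BET libraries lay 0.13, 0.15 and 0.16 (log2) above the mean of the 9 libraries. The DMSO libraries there lay at 0.06, -0.02 and -0.14 relative to that mean. The next band, 50 to 100 kb downstream, passed for dTAG+I-BET against DMSO in 2 of the alternatives run, without dTAG replicate 3 and after rescaling to equal totals, at 0.19 each time (limma adjusted p = 0.0302 and 0.0347). The upstream counterpart of the nearer band did not separate the groups, at 1944, 1802 and 1347 per kb in dTAG, 1757, 2019 and 1924 per kb in dTAG+I-BET, and 2006, 1800 and 1734 per kb in DMSO.

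The hair keratin block (chr17:41346092-41492546) measured 566, 633 and 470 per kb in dTAG, 632, 640 and 677 per kb in dTAG+I-BET, and 590, 605 and 501 per kb in DMSO, and its log2 ratio for dTAG+I-BET against DMSO was 0.20 (SE 0.13, limma adjusted p = 0.358). On the other side, the block of KRT9, KRT14, KRT16 and KRT17 (chr17:41565836-41624842) measured 733, 714 and 530 per kb in dTAG, 752, 808 and 765 per kb in dTAG+I-BET, and 820, 742 and 661 per kb in DMSO. Its log2 ratio for dTAG against DMSO was -0.18 (SE 0.14, limma adjusted p = 0.555), and -0.029 without dTAG replicate 3. The sequence upstream of the cluster (chr17:41624843-42028308) averaged 219 ± 29.5 per kb in dTAG, 230 ± 9.36 per kb in dTAG+I-BET and 224 ± 20.3 per kb in DMSO (SD, n = 3 each), and the groups overlapped.

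**Figure D2:**
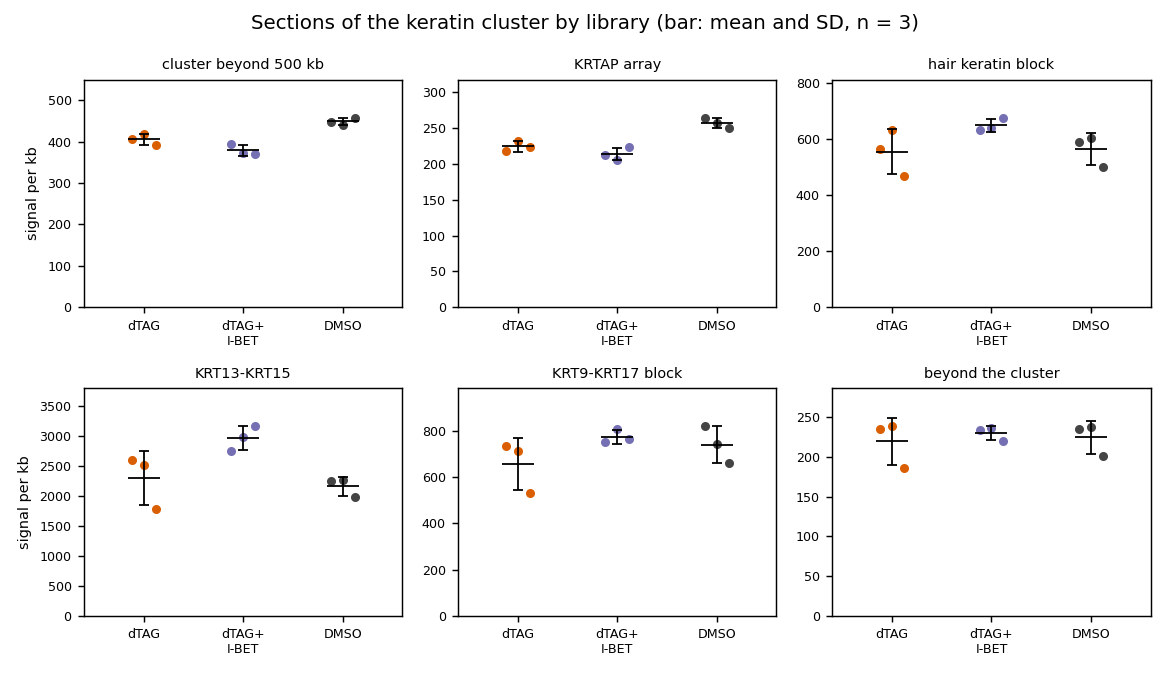
Signal per kb of the KRT19 promoter in 6 sections of the keratin cluster, each axis starting at 0, by library of dTAG, dTAG+I-BET and DMSO; bars are the mean and SD of 3. In the KRTAP array all treated libraries (206 to 233 per kb) lie below all DMSO libraries (250 to 265 per kb), and in KRT13-KRT15 the dTAG+I-BET libraries (2751 to 3155 per kb) lie above them (1973 to 2258 per kb).

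At the gene starts, each taken as a 5-kb window, no keratin passed the test in any comparison. Every one of the 14 keratin starts had a ratio above 0 for dTAG+I-BET against DMSO, but some were below 0 under an alternative: KRT9 (-0.06) and KRT17 (-0.02) after correction for each library's decay with distance, KRT33B (-0.42) with 2.5-kb windows, KRT33A (-0.07) without DMSO replicate 2, and KRT34 without DMSO replicate 3 (-0.19) or dTAG+I-BET replicate 3 (-0.03). For dTAG against DMSO 8 were above and 6 below 0. The share of starts above 0 over all 20 promoters is not given. Starts of one library share its scaling and distance decay, so their common direction is not 14 separate observations. At the other 19 promoters all dTAG+I-BET libraries also lay above all DMSO libraries from 10 to 50 and from 50 to 100 kb, but not from 100 to 250 kb. Over all 81 starts at KRT19 the limma test called 0 in each of the 3 comparisons (5, 11 and 11 at an unadjusted p under 0.05). The background of limma calls at all 20 promoters was 1.51%, 1.08% and 0% of 464 starts, and none is given for edgeR. edgeR called 0, 1 and 0 of the 81, its 1 start being that of the microRNA gene MIR6510 described with KRT13.

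Of the 5 epithelial keratins tested, KRT13, the keratin of non-cornified stratified epithelium such as that of the oesophagus, had the highest signal, with 2957, 2820 and 1992 per kb in dTAG, 2683, 3128 and 3124 per kb in dTAG+I-BET, and 2492, 2362 and 2044 per kb in DMSO. The dTAG+I-BET libraries lay above DMSO, with a log2 ratio of 0.37 (SE 0.15, limma adjusted p = 0.228). The start of MIR6510, a microRNA gene inside KRT15 that was singled out after its values were seen, measured 3456, 3125 and 2304 per kb in dTAG, 3648, 3991 and 4074 per kb in dTAG+I-BET, and 2746, 3081 and 2648 per kb in DMSO, at a log2 ratio of 0.47 (SE 0.14, limma adjusted p = 0.126) for dTAG+I-BET against DMSO. edgeR called it (adjusted p = 0.0293), and limma did so without dTAG replicate 3 (adjusted p = 0.00219). After correction for decay its ratio was 0.33 (limma adjusted p = 0.0169). KRT9, the keratin of palm and sole epidermis, measured 1379, 1147 and 901 per kb in dTAG, 1027, 1387 and 1208 per kb in dTAG+I-BET, and 1127, 1212 and 979 per kb in DMSO, with overlapping groups.

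KRT14, the partner of KRT5 in basal keratinocytes, measured 581, 558 and 399 per kb in dTAG, 721, 971 and 821 per kb in dTAG+I-BET, and 841, 544 and 561 per kb in DMSO. Here dTAG+I-BET was above dTAG without overlap, at a log2 ratio of 0.72 (SE 0.21, limma adjusted p = 0.501), a ratio singled out after its value was seen; against DMSO it was 0.39 (SE 0.21, limma adjusted p = 0.376). KRT16, which is induced in wounded epidermis, measured 814, 663 and 606 per kb in dTAG, 751, 878 and 853 per kb in dTAG+I-BET, and 778, 832 and 504 per kb in DMSO, with a log2 ratio of 0.26 (SE 0.20, limma adjusted p = 0.589) for dTAG+I-BET against DMSO. KRT17, a keratin of skin appendages and of stressed epidermis, measured 349, 473 and 260 per kb in dTAG, 445, 416 and 354 per kb in dTAG+I-BET, and 413, 370 and 360 per kb in DMSO, and the groups overlapped.

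The 9 hair keratins encode the acidic keratins of the hair shaft and nail. KRT36 had the highest DMSO mean among them, with 1047, 915 and 572 per kb in dTAG, 950, 1279 and 1288 per kb in dTAG+I-BET, and 794, 945 and 720 per kb in DMSO, and the dTAG+I-BET libraries lay above DMSO at a log2 ratio of 0.51 (SE 0.22, limma adjusted p = 0.242). KRT35 measured 698, 694 and 520 per kb in dTAG, 920, 770 and 918 per kb in dTAG+I-BET, and 492, 626 and 590 per kb in DMSO. Its log2 ratio of 0.61 (SE 0.18, limma adjusted p = 0.117) for dTAG+I-BET against DMSO was the highest among the 14 keratins, and it passed without dTAG replicate 3 (limma adjusted p = 0.0246), as did KRT13 (limma adjusted p = 0.0246).

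KRT31 was the third hair keratin whose dTAG+I-BET libraries lay above DMSO, with 565, 726 and 624 per kb in dTAG, 751, 817 and 853 per kb in dTAG+I-BET, and 619, 709 and 504 per kb in DMSO, at a log2 ratio of 0.41 (SE 0.18, limma adjusted p = 0.242). KRT32, KRT37, KRT38 and KRT33B had log2 ratios for dTAG+I-BET against DMSO of 0.35, 0.23, 0.28 and 0.22, with limma adjusted p values of 0.376 to 0.666, and their groups overlapped. KRT33A and KRT34 had overlapping groups as well, at means of 415 and 358 per kb in dTAG, 468 and 444 per kb in dTAG+I-BET, and 428 and 416 per kb in DMSO.

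As a list, the hair keratins had a median log2 ratio of 0.01 for dTAG, 0.28 for dTAG+I-BET (both against DMSO) and 0.32 between dTAG+I-BET and dTAG. For the epithelial keratins these medians were 0.00, 0.26 and 0.22. Without dTAG replicate 3 the medians were 0.21, 0.28 and 0.25 for the hair keratins and 0.10, 0.26 and 0.04 for the epithelial keratins, so the level of dTAG alone against DMSO depended on that library. Over all 464 starts they were -0.04, 0.05 and 0.08. The groups did not overlap at 0, 3 and 3 of the hair keratins and at 0, 1 and 1 of the epithelial keratins, against 18.8%, 22.6% and 14.7% of all 464 starts.

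**Figure D3:**
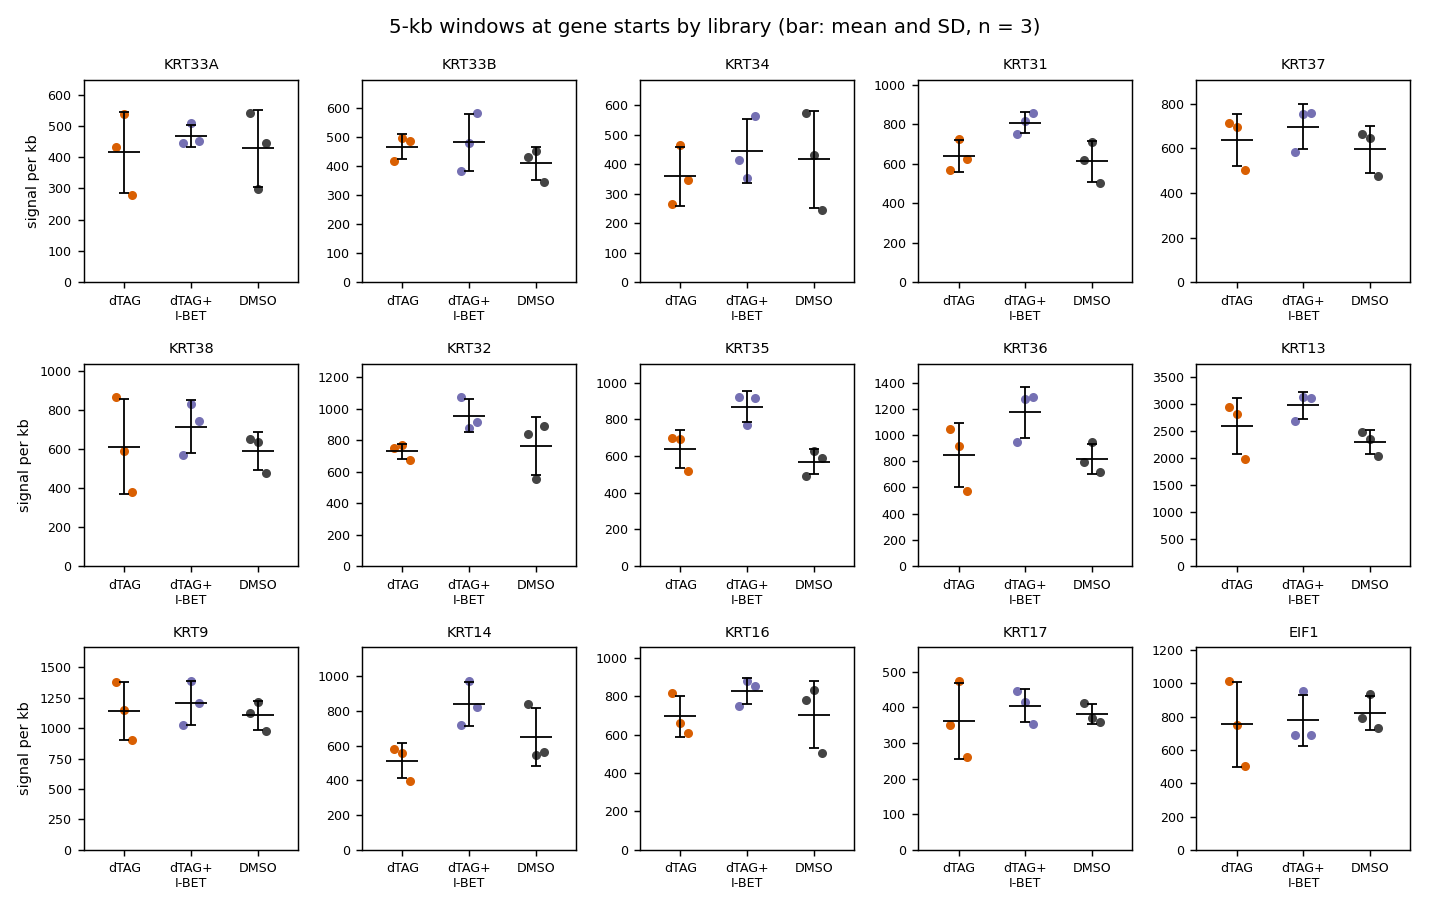
Signal per kb of the KRT19 promoter in 5-kb windows at the starts of 14 keratin genes and EIF1, by library of dTAG, dTAG+I-BET and DMSO; bars are the mean and SD of 3, and each axis starts at 0. dTAG+I-BET libraries lie above all DMSO libraries at KRT31, KRT35, KRT36 and KRT13.

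The 30 KRTAP starts ran the other way. Their median log2 ratio was -0.13 for dTAG, -0.21 for dTAG+I-BET (both against DMSO) and -0.09 between dTAG+I-BET and dTAG; 21 and 24 of the 30 ratios against DMSO were below 0, and none passed the test. These medians were -0.27, -0.21 and 0.02 without dTAG replicate 3. The groups did not overlap at 4, 3 and 1 of the 30 starts, each a smaller share than the 18.8%, 22.6% and 14.7% of all 464 starts. The share of the 464 with a ratio below 0 is not given. These starts lie inside the KRTAP array described above, so their common direction is not a separate result. KRTAP2-3, with the highest DMSO mean, measured 216, 358 and 502 per kb in dTAG, 399, 277 and 483 per kb in dTAG+I-BET, and 587, 359 and 475 per kb in DMSO, at log2 ratios of -0.46 (SE 0.30, limma adjusted p = 0.501) and -0.30 (SE 0.30, limma adjusted p = 0.668) against DMSO, the first being -0.74 without dTAG replicate 3. KRTAP9-6, with the lowest, measured 183, 116 and 86.6 per kb in dTAG, 123, 61.6 and 48.3 per kb in dTAG+I-BET, and 95.2, 82.2 and 130 per kb in DMSO, and the groups overlapped.

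KRTAP4-5, singled out after its values were seen, had the lowest ratio of all 81 starts for dTAG against DMSO. It measured 83.1, 147 and 69.3 per kb in dTAG, 261, 308 and 129 per kb in dTAG+I-BET, and 254, 308 and 201 per kb in DMSO. The dTAG libraries were below DMSO at a log2 ratio of -1.40 (SE 0.36, limma adjusted p = 0.0704), while dTAG+I-BET overlapped DMSO. Without DMSO replicate 3 or dTAG+I-BET replicate 3 the limma adjusted p was 0.0493 and 0.0459, and after correction for decay it was 0.0495; without dTAG replicate 3 the ratio was -1.17 (limma adjusted p = 0.203).

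Among the 14 other protein-coding genes, the EIF1 start had the highest signal, with 1013, 747 and 502 per kb in dTAG, 690, 955 and 692 per kb in dTAG+I-BET, and 794, 935 and 734 per kb in DMSO; the groups overlapped. GAST measured 183, 284 and 156 per kb in dTAG, 184, 216 and 225 per kb in dTAG+I-BET, and 317, 216 and 201 per kb in DMSO, also with overlap. NT5C3B (a nucleotidase) and KLHL10 (a ubiquitin ligase adaptor of sperm development) share most of one window, and their log2 ratios for dTAG against DMSO were -0.58 and -0.50 (limma adjusted p = 0.537 and 0.609), and -0.33 and -0.02 without dTAG replicate 3.

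KLHL11, another member of the Kelch-like adaptor family, averaged 120 per kb in dTAG, 155 per kb in dTAG+I-BET and 134 per kb in DMSO. JUP, which encodes the junction protein plakoglobin, averaged 116, 139 and 106 per kb in the same groups, and ACLY, the enzyme that makes cytosolic acetyl-CoA, 54.2, 72.7 and 99.8 per kb. At these levels a window held few interactions, and all 3 had overlapping groups. The NKIRAS2 start, which encodes an inhibitor of NF-kappa-B signalling and was singled out after its values were seen, measured 216, 116 and 191 per kb in dTAG, 46.0, 46.2 and 48.3 per kb in dTAG+I-BET, and 31.7, 113 and 72.0 per kb in DMSO. Its dTAG libraries were above both other groups, with log2 ratios of 1.39 (SE 0.44, limma adjusted p = 0.226) for dTAG against DMSO and -1.82 (SE 0.44, limma adjusted p = 0.417) for dTAG+I-BET against dTAG.

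In the 98 10-kb bins no difference was called in any comparison by limma (8, 12 and 6 bins at an unadjusted p under 0.05), and edgeR called 0, 2 and 0. The background of limma calls at all 20 promoters was 1.48%, 4.9% and 0% of 1960 bins, and none is given for edgeR. The groups did not overlap in 10, 14 and 10 of the 98 bins, against 16.3%, 26.3% and 13.9% of the 1960. For dTAG+I-BET against DMSO, 8 of the 98 bins were higher and 6 lower without overlap. Both are smaller shares than the 15.1% and 11.2% of the 1960 bins, which were counted over all distances from 10 to 500 kb. Of the 8 higher bins 7 lay within 100 kb downstream, and all 6 lower ones lay 200 to 500 kb downstream. This arrangement is a description and was not tested.

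The 9 bins from 10 to 100 kb downstream all had ratios above 0 for dTAG+I-BET against DMSO (median 0.34), and the 10 bins from 400 to 500 kb downstream all had ratios below 0 (median -0.35). For dTAG against DMSO these medians were 0.06 and -0.25, and 0.22 and -0.40 without dTAG replicate 3. Upstream, the 9 bins from 10 to 100 kb were all below 0 for dTAG against DMSO (median -0.19) and had a median of 0.06 for dTAG+I-BET against DMSO. For dTAG, 5 of these 9 were below 0 without its replicate 3 (median -0.085). Bins of one library share its scaling and its distance decay, so their common direction is 1 observation per library. The 2 bins that edgeR called were those at 10 to 20 and 30 to 40 kb downstream, at log2 ratios of 0.52 (adjusted p = 0.00303) and 0.54 (adjusted p = 0.0162). After correction for decay these ratios were 0.33 (limma adjusted p = 0.0035) and 0.34 (limma adjusted p = 0.0405). Without dTAG replicate 3 limma called 6 bins, the 4 from 10 to 50 kb downstream (0.34 to 0.52, adjusted p = 0.000166 to 0.0322) and 2 in the KRTAP array. The share called over all 20 promoters in that setting is not given.

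**Figure D4:**
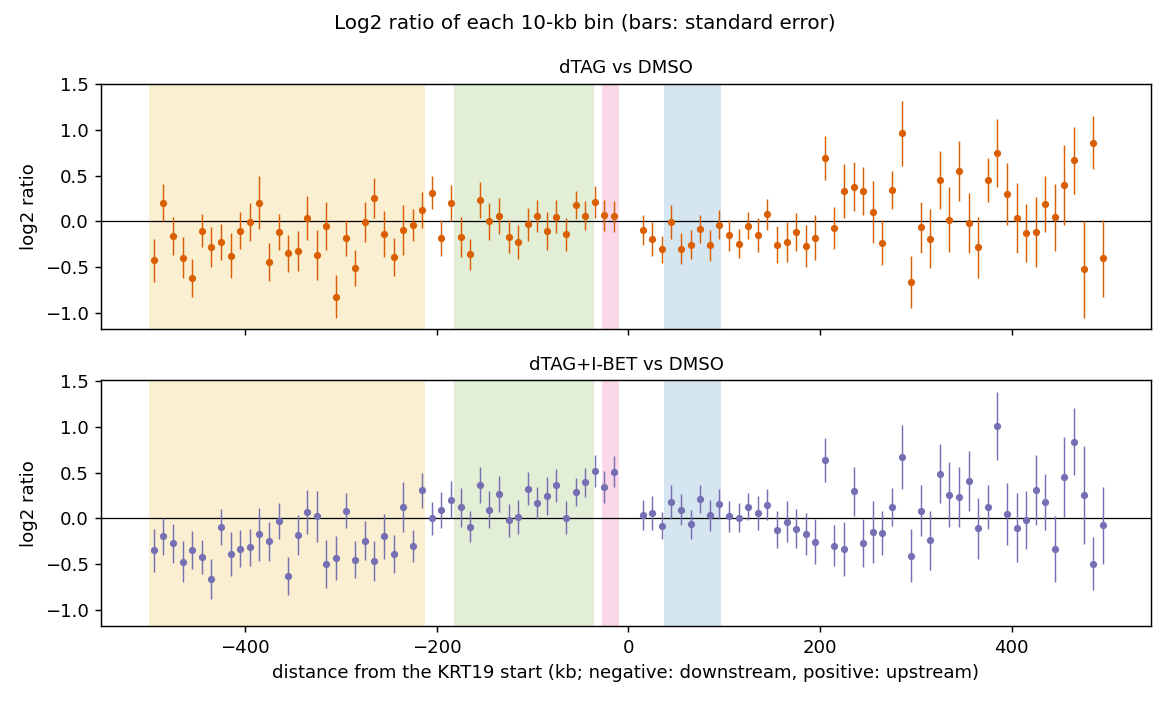
Log2 ratio of each of the 98 10-kb bins with its standard error, by distance from the KRT19 start in kb, for dTAG against DMSO (top) and dTAG+I-BET against DMSO (bottom); shaded bands mark the sections. In the lower panel the bins 10 to 100 kb downstream lie above 0 (median 0.34) and those 400 to 500 kb downstream below 0 (median -0.35).

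For dTAG against DMSO the lowest ratio was at 300 to 310 kb downstream (chr17:41218308-41228307, with the KRTAP9-2 start), with 233, 121 and 121 per kb in dTAG, 192, 185 and 217 per kb in dTAG+I-BET, and 278, 329 and 209 per kb in DMSO, at a log2 ratio of -0.82 (SE 0.24, limma adjusted p = 0.0836). It passed without dTAG replicate 1, at -1.13 (limma adjusted p = 0.0109), without DMSO replicate 3 (limma adjusted p = 0.0369), and after correction for decay (limma adjusted p = 0.0467). The next lowest, at 290 to 300 kb upstream, was -0.67 (SE 0.29), and the highest, at 280 to 290 and 480 to 490 kb upstream, were 0.96 (SE 0.35) and 0.86 (SE 0.29), with limma adjusted p values of 0.153 to 0.296 for the 3.

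For dTAG+I-BET against DMSO the lowest bins were at 430 to 440 kb downstream (KRTAP4-8), at -0.66 (SE 0.22, limma adjusted p = 0.111), and at 350 to 360 kb downstream (KRTAP4-2), at -0.63 (SE 0.21, limma adjusted p = 0.104); both passed without dTAG replicate 3, with limma adjusted p values of 0.0285 and 0.0291, and the KRTAP4-2 bin also without DMSO replicate 3 (limma adjusted p = 0.0405). The highest were at 380 to 390 and 460 to 470 kb upstream, at 1.01 (SE 0.37) and 0.84 (SE 0.37). For dTAG+I-BET against dTAG the lowest were at 480 to 490 kb upstream (NKIRAS2), at -1.36 (SE 0.29, limma adjusted p = 0.301), and at 260 to 270 kb downstream (KRTAP9-6), at -0.73 (SE 0.21), and the highest at 470 to 480 kb upstream, at 0.77 (SE 0.53), and at 10 to 20 kb downstream, at 0.45 (SE 0.17); without dTAG replicate 3 these highest ratios were 0.21 and 0.28. The far upstream bins among these held 2 to 30 interactions in a library.

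Cohesin is the ring complex that extrudes chromatin loops, and the study listed sites where its subunit SMC1A decreased with dTAG in these cells; their coordinates were used here. At KRT19, 3 such sites lay 10 to 500 kb from the start, and none of their windows (5 kb added on each side) was called, against 14.4%, 15.7% and 0% of 153 windows at all 20 promoters in the 3 comparisons. In limma, 0, 0 and 1 of the 3 had an unadjusted p under 0.05, and edgeR called 0 in each. The site upstream of the cluster (chr17:41654102-41654502) measured 887, 865 and 858 per kb in dTAG, 965, 963 and 890 per kb in dTAG+I-BET, and 916, 918 and 816 per kb in DMSO. It lies next to the highest distant bin, and its groups overlapped except that dTAG+I-BET was above dTAG. Without overlap stood 0, 1 and 2 of the 3 windows, against 28.1%, 41.8% and 13.7% of the 153.

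The other 2 sites lie in the KRTAP array. That at chr17:41131982-41132382 measured 303, 202 and 200 per kb in dTAG, 169, 156 and 194 per kb in dTAG+I-BET, and 259, 202 and 221 per kb in DMSO, so that dTAG+I-BET lay below both other groups, at a log2 ratio of -0.39 (SE 0.19, limma adjusted p = 0.162) against DMSO. That at chr17:41066204-41066604 averaged 290 ± 95.5 per kb in dTAG, 282 ± 43.2 per kb in dTAG+I-BET and 308 ± 81.8 per kb in DMSO (SD, n = 3 each). A further 2 sites lie within 10 kb of the start, where no test was made. The window of the downstream one (chr17:41516766-41527166) averaged 5259 ± 343 per kb in dTAG, 5479 ± 273 per kb in dTAG+I-BET and 4534 ± 53.1 per kb in DMSO (SD, n = 3 each), and it holds the KRT15 window. The other window (chr17:41523205-41533605) averaged 5964 ± 680 per kb in dTAG, 5878 ± 299 per kb in dTAG+I-BET and 5479 ± 440 per kb in DMSO (SD, n = 3 each). Both treated groups overlapped DMSO there.

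The balance of the 2 sides was taken as the log2 ratio of upstream over downstream signal from 10 to 500 kb. It was -0.11, -0.20 and -0.29 in dTAG, -0.19, -0.14 and -0.29 in dTAG+I-BET, and -0.10, -0.18 and -0.15 in DMSO, with overlap. The differences from DMSO were -0.06 for dTAG (two-sided exact permutation p = 0.4) and -0.06 for dTAG+I-BET (p = 0.3, same exact test), and dTAG+I-BET differed from dTAG by -0.01 (p = 0.9, same exact test). Across the other 19 promoters the DMSO mean ran from -1.47 to 1.69, with a median of 0.71.

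Taken only to 250 kb, the ratio was 0.11, 0.01 and 0.02 in dTAG, -0.02, 0.06 and -0.10 in dTAG+I-BET, and 0.23, 0.12 and 0.23 in DMSO. Both treated groups then lay below DMSO without overlap, by -0.15 and -0.21 (two-sided exact permutation p = 0.1 each, the smallest possible). From 50 to 500 kb the differences from DMSO were 0.02 and 0.09 (two-sided exact permutation p = 0.9 and 0.3), so the direction depended on the distances taken.

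**Figure D5:**
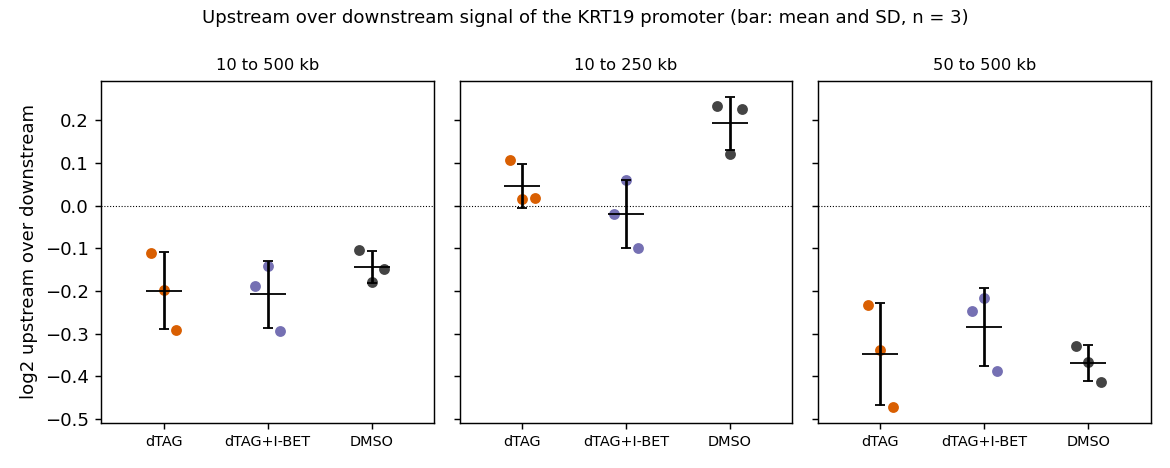
Log2 ratio of upstream over downstream signal of the KRT19 promoter by library of dTAG, dTAG+I-BET and DMSO over 3 ranges of distance; bars are the mean and SD of 3. From 10 to 250 kb all treated libraries (-0.10 to 0.11) lie below all DMSO libraries (0.12 to 0.23), and in the other ranges the groups overlap.

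Bins with and without a match to the CTCF core motif were set side by side, with no test. For dTAG against DMSO the 31 bins with a match had a median log2 ratio of -0.09 and the 67 without one -0.08, and for dTAG+I-BET against DMSO the medians were 0.06 and -0.08. Between dTAG+I-BET and dTAG they were 0.18 and 0.07. The bins with a match were also higher in signal, with a median DMSO level of 377 per kb against 258 per kb in those without.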

How the data were processed

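Capture-C libraries of 3 groups of 3 were used. Per the labels and the study's methods, the authors digested chromatin with DpnII, captured promoter ligation products and demultiplexed with bcl2fastq 2.17. They deposited a signal for each DpnII fragment (hg38), its interactions scaled per viewpoint and library, at KRT19 to near-equal sums on chromosome 17. Dividing each column by its lowest nonzero value gave whole numbers throughout (100% within a tolerance of 0.01), so interactions were recovered. The study calls the replicates biologically independent. The column names number them with the letters TR, which they do not spell out, and do not say whether they were separate cultures. The p-values therefore measure the spread between these libraries.

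Signal was summed over 10-kb bins, 5-kb windows at gene starts (GENCODE 44), bands and sections, and cohesin-lost sites widened by 5 kb, all 10 to 500 kb from the start except the section beyond 500 kb, and divided by length. Regions averaging at least 2 per kb were tested as log2(value + 1) with limma 3.58.1 (R 4.3.3, trend, all 9 libraries), with Benjamini-Hochberg adjustment over the regions of all 20 promoters per comparison, so ratios understate changes of low regions. Single values had two-sided exact permutation tests. edgeR 4.0.16 (quasi-likelihood, TMM) on recovered interactions was an alternative. Its library sizes and TMM factors were taken over the regions of all 20 promoters together, while the deposited signal is scaled per viewpoint. On simulated bins limma found 84 of 100 changes of log2 1 and 35 of 100 of log2 0.5 for dTAG against DMSO, and called 6 of 1760 unchanged bins. Each bin was drawn independently, without a shift shared by the bins of 1 library such as that of dTAG replicate 3. These rates therefore may not hold for the real libraries.

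Named were all epithelial and hair keratin starts, the highest and lowest KRTAP start and the 5 highest other starts in DMSO, with EIF1, JUP and ACLY, called regions, the 2 lowest and 2 highest bins per comparison, and the 5 bins highest over the other promoters. The members and lists were chosen with earlier results of these data known.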

Additional observations from a re-analysis of the deposited data

How the results depend on the processing

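The counts of called regions moved with the settings. For dTAG against DMSO, correction for each library's decay with distance called 1 bin, 1 gene start and 2 sections, and the replicate block 2 bins (300 to 310 and 450 to 460 kb downstream, adjusted p = 0.0254 and 0.0470) and 1 gene start (KRTAP4-5, adjusted p = 0.00589). For dTAG+I-BET against DMSO, bins called were 1 with 5-kb bins, 2 with decay correction, 2 with edgeR, 6 with only the compared groups, 1 with the replicate block and 3 after rescaling to equal totals from 10 to 1000 kb. Gene starts called were 1, 1, 2 and 3 with decay correction, edgeR, only the compared groups and rescaling, and sections 5, 5 and 7 with decay correction, only the compared groups and rescaling. Leaving out 1 library gave 0 to 1 bins, 0 to 1 gene starts and 0 to 3 sections for dTAG, and 0 to 6 bins, 0 to 3 gene starts and 0 to 6 sections for dTAG+I-BET, both against DMSO; the highest for dTAG+I-BET and the 3 sections for dTAG came without dTAG replicate 3, and the 0 sections for dTAG+I-BET without DMSO replicates 1 or 2 or any dTAG+I-BET replicate. Nothing was called between dTAG+I-BET and dTAG in any of these settings at KRT19. Whether replicate numbers pair the libraries was not settled. Deviations of libraries with the same number had correlations of -0.08 to 0.34, and for dTAG with DMSO these were 0.04, 0.23 and 0.34. Libraries of unlike number were not compared. The upstream over downstream ratio differed from DMSO by -0.15 and -0.21 (dTAG and dTAG+I-BET) from 10 to 250 kb and by 0.020 and 0.085 from 50 to 500 kb. Depth limited what could be seen beyond EIF1, where a bin held as few as 2 interactions. The cause of these shifts was not tested.

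Many ratios changed sign in at least 1 alternative, none of which had passed the test. In the 3 comparisons these were 46, 42 and 47 of the 98 bins, 49, 42 and 46 of the 81 gene starts, and 8, 6 and 4 of the 14 sections. Most but not all lay within 1 SE of 0, which held for 45, 37 and 42 of those bins and 45, 36 and 37 of those starts. Here and in the next paragraph only ratios of named regions and starts are listed. After correction for decay they were 0.063 (downstream 50 to 100 kb), 0.018 (upstream 100 to 250 kb), 0.066 (downstream 100 to 250 kb), 0.063 (the hair keratin block) and 0.051 (the sequence upstream of the cluster) for dTAG against DMSO, and -0.14 (upstream 10 to 50 kb), -0.024 (upstream 50 to 100 kb), -0.059 (the KRT9-KRT17 block), -0.056 (KRT9) and -0.023 (KRT17) for dTAG+I-BET against DMSO, and -0.087 (upstream 10 to 50 kb) and -0.0015 (the sequence upstream of the cluster) for dTAG+I-BET against dTAG. With edgeR they were 0.057 (downstream 50 to 100 kb), 0.012 (downstream 100 to 250 kb), 0.029 (the hair keratin block) and 0.019 (the sequence upstream of the cluster) for dTAG against DMSO, and -0.0049 (upstream 100 to 250 kb), 0.036 (the cohesin-lost site at chr17:41066204) and -0.53 (ACLY) for dTAG+I-BET against DMSO, and -0.0011 (the sequence upstream of the cluster) for dTAG+I-BET against dTAG. After rescaling they were 0.081 (downstream 50 to 100 kb), 0.038 (downstream 100 to 250 kb), 0.054 (the hair keratin block), 0.046 (the sequence upstream of the cluster) and 0.044 (KLHL11) for dTAG against DMSO, and -0.00018 (the sequence upstream of the cluster) for dTAG+I-BET against dTAG. With 10 kb added on each side of a site they were -0.0086 (the cohesin-lost site at chr17:41654102) for dTAG+I-BET against DMSO. With 2.5-kb windows they were 0.57 (KLHL11) for dTAG against DMSO, and -0.42 (KRT33B), 0.42 (KRTAP9-6), 0.11 (EIF1) and -1.43 (ACLY) for dTAG+I-BET against DMSO. With 10-kb windows they were 0.092 (KLHL11) for dTAG against DMSO, and -0.19 (ACLY) for dTAG+I-BET against DMSO.

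Leaving out 1 library in turn, the ratios that changed sign for dTAG against DMSO ranged from -0.24 to 0.022 (upstream 10 to 50 kb), -0.016 to 0.25 (downstream 10 to 50 kb), -0.074 to 0.12 (downstream 50 to 100 kb), -0.17 to 0.036 (upstream 100 to 250 kb), -0.14 to 0.038 (downstream 100 to 250 kb), -0.13 to 0.086 (the hair keratin block), -0.026 to 0.25 (the KRT13-KRT15 section), -0.11 to 0.079 (the sequence upstream of the cluster), -0.0048 to 0.53 (KRTAP9-6), -0.41 to 0.091 (EIF1), -0.28 to 0.40 (KLHL11) and -0.35 to 0.64 (JUP). Those for dTAG+I-BET against DMSO ranged from -0.0034 to 0.10 (upstream 10 to 50 kb), -0.059 to 0.061 (upstream 100 to 250 kb), -0.0089 to 0.15 (downstream 100 to 250 kb), -0.010 to 0.15 (the KRT9-KRT17 block), -0.039 to 0.080 (the sequence upstream of the cluster), -0.34 to 0.032 (the cohesin-lost site at chr17:41066204), -0.071 to 0.36 (KRT33A), -0.19 to 0.42 (KRT34), -0.24 to 0.012 (EIF1), -0.65 to 0.19 (NT5C3B), -0.34 to 0.19 (KLHL10), -0.19 to 0.93 (JUP) and -0.95 to 0.65 (ACLY). Those for dTAG+I-BET against dTAG ranged from -0.021 to 0.18 (upstream 100 to 250 kb), -0.11 to 0.027 (upstream 250 to 500 kb) and -0.040 to 0.14 (the sequence upstream of the cluster).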
